A study of Mus musculus with 10 samples.

Results

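The colony-stimulating factors and their receptor chains were followed in sorted tumour-associated macrophages as a set of 10 genes out of the 46957 loci listed for each sample. The members were chosen by gene symbol: the ligands Csf1, Il34, Csf2 and Csf3, and the receptor chains Csf1r, Csf2ra, Csf2rb, Csf2rb2, Csf3r and Il3ra. Each of the 10 symbols had 1 row in every sample. RNA was sequenced from macrophages of tumours that the mouse mammary carcinoma line 4T1 formed in the mammary fat pad of the mouse strain BALB/cJ. The 5 vehicle samples came from mice given PBS, and the 5 JHU083 samples from mice given that compound at 1 mg/kg from day 7 to day 13. The compound JHU083 releases the glutamine antagonist 6-diazo-5-oxo-L-norleucine, of which it is a prodrug. All tumours were harvested on day 14, and live cells were sorted as CD45+CD11b+F4/80+ and negative for CD8, Ly6C and Ly6G. The labels do not say whether each sample is 1 mouse, so the p-values measure the spread between these samples, which may be technical.

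CSF1 and IL-34 are the ligands of CSF1R, a receptor tyrosine kinase on which most tissue and tumour macrophages depend for survival and differentiation. CSF2 (GM-CSF) and CSF3 (G-CSF) are better known for their action on granulocytes and inflammatory myeloid cells, and 4T1 tumours are known for the granulocyte expansion they cause in the host. CSF2 binds a specific alpha chain, CSF2RA, which signals through a shared beta chain, CSF2RB; IL-3 binds IL3RA with the same beta chain or, in mice, with a closely related second beta chain encoded by Csf2rb2.

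The recovered depth was 11147870 to 14575932 fragments in the vehicle samples and 13638381 to 15740700 in the JHU083 samples. At these depths 3 fragments, the smallest level treated as measurable, corresponded to 0.196 to 0.261 CPM, that is, fragments of a gene scaled to a common, TMM-normalised library size. Mitochondrial genes took 1.53% to 2.08% of the fragments under vehicle and 2.14% to 2.44% under JHU083, without overlap, and the part of this difference in the results was not tested. In 3 vehicle samples (replicates 2, 4 and 5) and 2 JHU083 samples (replicates 1 and 3) the tables list 0 for a pair of rRNA-like loci, Gm42418 and Rn18s-rs5, which are well covered in the remaining samples. This split crosses both treatments, and results within each set of samples are given where they bear on a call. The macrophage markers were abundant in all samples, with a summed level of 11541 to 15064 CPM under vehicle and 13107 to 17198 CPM under JHU083 over 9 genes. Markers of tumour epithelium, a list of 7 genes none of which was at 0, summed to 295 to 642 CPM under vehicle and to 103 to 218 CPM under JHU083, and all 7 were lower. Of the 7 fibroblast markers, 5 were lower, and their sum was 103 to 226 CPM against 25.9 to 115 CPM. Over all loci tested, 18.3% were lower.

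JHU083 was compared with vehicle by edgeR's quasi-likelihood test, fitted to all loci that passed a filter on low counts and adjusted over all of them by the Benjamini-Hochberg method at 0.05. Of 12500 loci tested, 36.7% changed, 18.4% higher and 18.3% lower (2296 and 2293 loci). With scaling by library size only, the split was 1564 higher and 3141 lower, and the 4 members called below stayed past the threshold in the same direction. Among the members 8 were tested, of which 3 (Csf1, Csf1r and Csf3r) were higher and 1 (Csf3) was lower. This is 4 of 8, against the 36.7% of all loci. The groups did not overlap for the same 4 members, against 22.3% of all loci tested (11.2% higher and 11.1% lower). Csf2 and Il34 did not pass the filter and are described by their fragments.

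**Figure D1:**
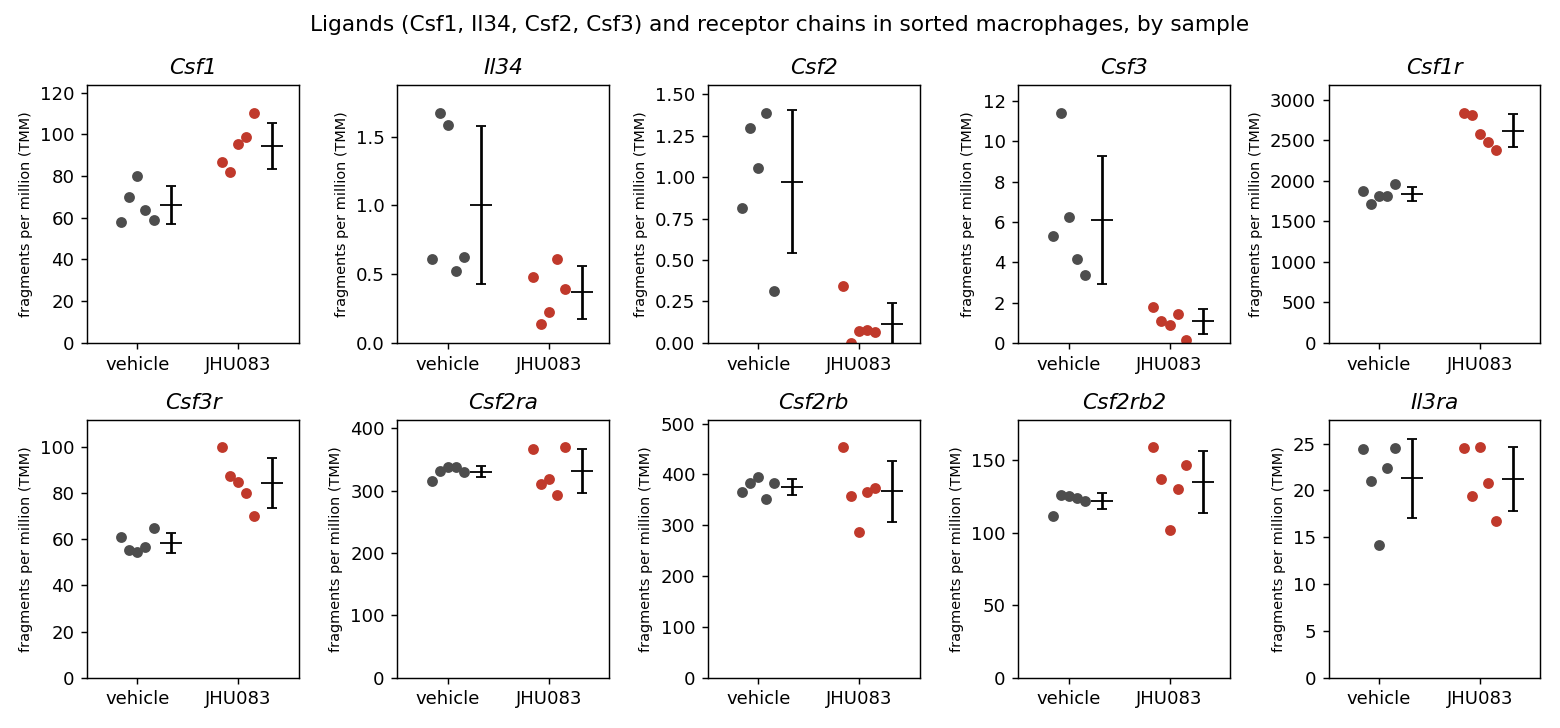
Level of each member in CPM (with TMM-scaled library sizes) in the 5 vehicle samples (grey) and 5 JHU083 samples (red), with the group mean ± SD beside the points; each axis starts at 0. Csf1, Csf1r and Csf3r are higher in all 5 JHU083 samples than in any vehicle sample, Csf3 is lower in all 5, and the other 6 members overlap between the groups.

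Csf1 (chr3:107741048-107760469, minus strand, build GRCm38 here and below), the main growth factor of macrophages, was the most abundant of the ligands. Its level in vehicle replicates 1 to 5 was 57.7, 69.8, 80.1, 63.9 and 59.0 CPM, and in JHU083 replicates 1 to 5 it was 86.8, 82.0, 95.2, 98.5 and 110 CPM. Every JHU083 sample lay above every vehicle sample, though the lowest of them, replicate 2, was close to the highest vehicle sample, replicate 3. The mean rose 1.43-fold, from 66.1 ± 9.15 to 94.6 ± 11.01 CPM (SD, n = 5 each), a log2 fold change of 0.52 ± 0.10 (SE; edgeR adjusted p = 0.00177). The call held in the samples that list the rRNA-like loci at 0 (log2 fold change 0.51, edgeR adjusted p = 0.0388) and was lost in the others (0.48, edgeR adjusted p = 0.0578), with nearly the same size in both.

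Csf3 (chr11:98701263-98703629, plus strand), which encodes the granulocyte growth factor G-CSF, had the largest change among the tested members. It was counted with 78, 150, 83, 48 and 43 fragments in vehicle replicates 1 to 5 and with 26, 16, 12, 19 and 2 in JHU083 replicates 1 to 5. In CPM the vehicle samples held 5.30, 11.4, 6.26, 4.17 and 3.37, and the JHU083 samples 1.77, 1.10, 0.895, 1.45 and 0.131. All JHU083 samples were below all vehicle samples, and JHU083 replicate 5 was under the 3-fragment limit. The mean fell from 6.10 ± 3.17 to 1.07 ± 0.62 CPM (SD, n = 5 each), with a log2 fold change of -2.52 ± 0.43 (SE; edgeR adjusted p = 0.000561). From the summed fragments per depth, 402 against 75, the level was 6.15-fold lower, with a 95% exact interval of 4.79 to 7.98 that covers counting error only. On log2(FPKM + 1) the change was -1.59 (limma adjusted p = 0.000783), since a pseudocount of 1 compresses levels this low.

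Csf2 (chr11:54247271-54249667, minus strand) encodes GM-CSF, and its transcript was scarce in every sample. Vehicle replicates 1 to 5 held 12, 17, 14, 16 and 4 fragments (0.815, 1.30, 1.06, 1.39 and 0.313 CPM), and JHU083 replicates 1 to 5 held 5, 0, 1, 1 and 1 (0.341, 0, 0.0746, 0.0765 and 0.0655 CPM). The groups met only at vehicle replicate 5 and JHU083 replicate 1, and the other 4 JHU083 samples were under the 3-fragment limit. Over the summed fragments, 63 against 8, the level under JHU083 was 9.03-fold lower, with a 95% exact counting interval of 4.31 to 21.8. Without JHU083 replicate 1 the ratio was 19.2-fold, from 63 fragments against 3. In an edgeR fit with no filter on low counts, in which 17.9% of loci changed, 8.68% higher and 9.27% lower, the log2 fold change of Csf2 was -3.01 ± 0.61 (SE; edgeR adjusted p = 0.00012), and it ranged from -3.98 to -2.71 when each sample was left out in turn, with the call kept each time. An antisense gene, Gm12223, overlaps Csf2, and the library kit named in the labels does not mark strand, so fragments of the 2 genes cannot be told apart.

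Il34 (chr8:110741829-110805924, minus strand), the second ligand of CSF1R, was at the same low level. It had 9, 22, 21, 6 and 8 fragments in vehicle replicates 1 to 5 and 7, 2, 3, 8 and 6 in JHU083 replicates 1 to 5. The corresponding levels were 0.611, 1.68, 1.58, 0.521 and 0.626 CPM, and 0.477, 0.137, 0.224, 0.612 and 0.393 CPM. Vehicle replicates 2 and 3 stood above all other samples, while the remaining 3 lay at or near the upper end of the JHU083 range. The summed fragments, 66 against 26, gave a 2.91-fold lower level under JHU083 (95% exact counting interval 1.82 to 4.78). In the deposited FPKM the difference was smaller, 1.72-fold, and FPKM did not follow the fragments from sample to sample: JHU083 replicate 5, with 6 fragments, had 0.930 FPKM, and vehicle replicate 1, with 9, had 0.389. The fit with no filter gave a log2 fold change of -1.43 ± 0.48 (SE; edgeR adjusted p = 0.0279). That call was lost without vehicle replicate 2 (-1.18, edgeR adjusted p = 0.132), vehicle replicate 3 (-1.23, 0.0976) or JHU083 replicate 2 (-1.24, 0.0786). The antisense genes Gm15894 and Gm15895 overlap Il34.

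The levels of Csf3 and Csf2 moved in the same direction as the tumour epithelial markers. The summed level of those markers (Epcam, Krt8, Krt18, Krt14, Krt7, Cdh1 and Cldn4) was 409, 642, 562, 454 and 295 CPM in vehicle replicates 1 to 5, and 144, 179, 103, 218 and 132 CPM in JHU083 replicates 1 to 5. Among the vehicle samples, replicate 2 was highest in these markers and in Csf3, but Csf2 was highest in replicate 4; replicate 5 was lowest in all 3. Among the JHU083 samples, replicate 4 was highest in the markers, whereas Csf3 and Csf2 were highest in replicate 1. The fibroblast markers summed to 146, 226, 166, 142 and 103 CPM in vehicle replicates 1 to 5 and to 113, 115, 25.9, 69.7 and 82.2 CPM in JHU083 replicates 1 to 5, so they too were highest in vehicle replicate 2. The median log2 fold change of the epithelial markers was -1.78, beside -2.52 for Csf3. Csf1 moved the opposite way. The T and NK cell markers, a list of 7 genes, summed to 14.1 to 18.2 CPM under vehicle and 27.0 to 43.1 CPM under JHU083, nearly all of it Cd4 (mean 14.7 and 31.8 CPM), the only one tested. The other 6, among them Cd3e, Nkg7 and Ncr1, had at most 15 fragments in any sample. The part of epithelial, fibroblast or T and NK cell transcripts in the Csf3, Csf2 and Il34 results was not tested, and in these bulk samples fewer cells of a type cannot be told apart from less RNA per cell.

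**Figure D2:**
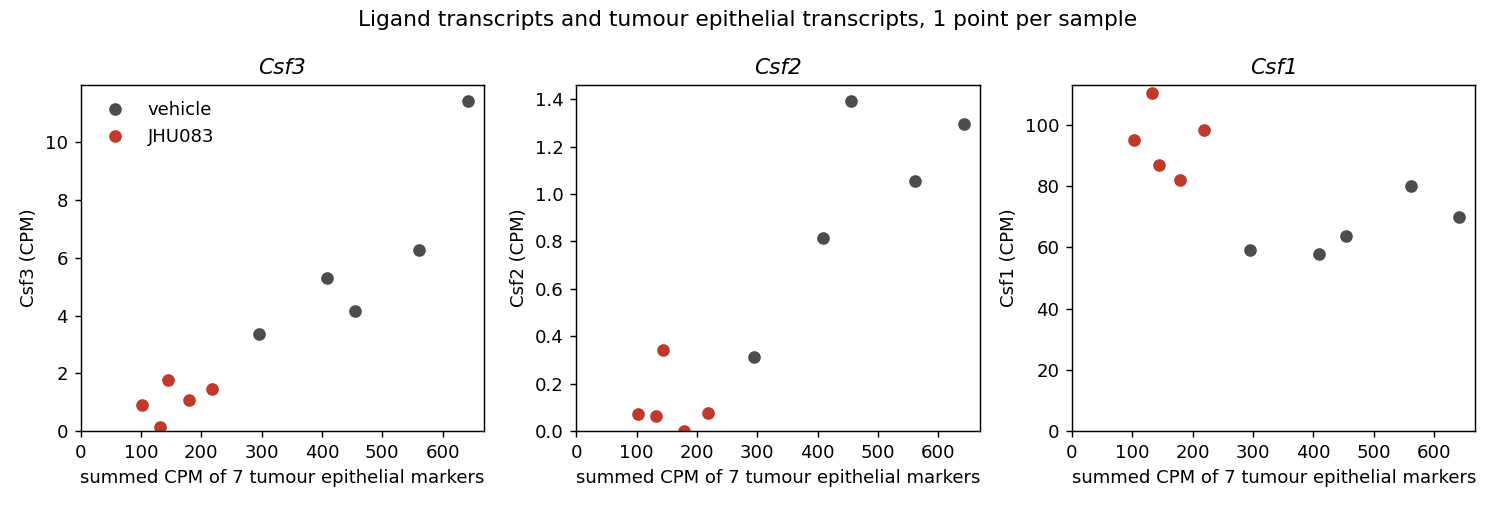
Level of Csf3, Csf2 and Csf1 (CPM, vertical axes) against the summed CPM of 7 tumour epithelial markers (horizontal axes) with 1 point per sample, vehicle in grey and JHU083 in red. The JHU083 samples sit at 103 to 218 CPM of markers with low Csf3 and Csf2, the vehicle samples at 295 to 642 CPM, and Csf1 is higher in the JHU083 samples.

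Among the receptors, Csf1r (chr18:61100598-61132149, plus strand), the kinase that binds CSF1 and IL-34, rose together with its main ligand. It was at 1877, 1719, 1815, 1813 and 1957 CPM in vehicle replicates 1 to 5 and at 2844, 2819, 2580, 2484 and 2377 CPM in JHU083 replicates 1 to 5. The groups were well apart, and the vehicle samples were tight, with a coefficient of variation of 4.79% against 7.84% under JHU083. Mean Csf1r increased 1.43-fold, from 1836 ± 88.0 to 2621 ± 205 CPM (SD, n = 5 each; log2 fold change 0.51 ± 0.09, SE; edgeR adjusted p = 0.000632). Within the samples that list the rRNA-like loci at 0 the log2 fold change was 0.57, and within the others 0.46, both past the threshold. Of the 9 macrophage markers, 2 were higher under JHU083, near the 18.4% of all loci: Adgre1, which encodes the F4/80 antigen used in the sort, with a log2 fold change of 0.63 (edgeR adjusted p = 2.18e-05), and the efferocytosis receptor Mertk, with 0.97 (edgeR adjusted p = 4.81e-06). The other 7 did not pass, and the part of macrophage content in the Csf1r result was not tested. Mir6983 and, on the opposite strand, the protein-coding gene Hmgxb3 overlap Csf1r.

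Csf3r (chr4:126024550-126044440, plus strand), the receptor of G-CSF and a gene typical of neutrophils, also rose. Vehicle replicates 1 to 5 were at 61.0, 55.4, 54.3, 56.5 and 64.7 CPM, and JHU083 replicates 1 to 5 at 99.8, 87.4, 85.0, 80.1 and 70.0 CPM. No JHU083 sample fell into the vehicle range. The mean was 1.45-fold higher, 84.5 ± 10.9 against 58.4 ± 4.34 CPM (SD, n = 5 each; log2 fold change 0.53 ± 0.09, SE; edgeR adjusted p = 0.000663), and it was 0.65 and 0.45 in the samples with the rRNA-like loci at 0 and present, both past the threshold. Csf3r therefore increased while the transcript of its ligand decreased.

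Of 11 neutrophil markers listed, 5 were tested, none was higher past the threshold and 2 were lower, against 36.7% of all loci that changed: the calprotectin subunits S100a8 (log2 fold change -1.40, edgeR adjusted p = 0.000872) and S100a9 (-2.18, edgeR adjusted p = 0.000196). The chemokine receptor Cxcr2 had a log2 fold change of 0.60 ± 0.38 (SE; edgeR adjusted p = 0.222), Retnlg one of 0.45 ± 0.48 (0.49) and Mmp8 one of -0.41 ± 0.17 (0.0732). The granule genes Ngp, Camp, Ltf, Elane and Mpo and the surface gene Ly6g were not tested. They had at most 13, 3, 17, 7, 12 and 2 fragments in any sample, in that order. Ngp was at 0.608 to 0.981 CPM under vehicle and at 0 to 0.0685 CPM under JHU083, without overlap. The others overlapped between the groups. Means under JHU083 were lower for Camp, Ltf and Ly6g. They were higher for Elane (0.0302 CPM under vehicle, 0.288 CPM under JHU083) and Mpo (0.105 and 0.344 CPM). The summed neutrophil level was 42.1 to 55.6 CPM under vehicle and 17.0 to 71.8 CPM under JHU083, where all samples but replicate 4 were below every vehicle sample. The part of neutrophils or eosinophils in the Csf3r result was not tested. The summed eosinophil level was 3.76 to 10.6 CPM against 6.71 to 17.4 CPM, with Siglecf higher (log2 fold change 0.89, edgeR adjusted p = 0.0115), the only one of 3 tested that passed, and Prg3 at 0 in every sample.

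Csf2ra (chr19:61223957-61228429, minus strand), the alpha chain that gives GM-CSF its specificity, showed no change past the threshold. It was at 316, 332, 338, 337 and 329 CPM in vehicle replicates 1 to 5 and at 367, 310, 319, 293 and 370 CPM in JHU083 replicates 1 to 5. JHU083 replicates 1 and 5 were above and replicates 2 and 4 below the whole vehicle range, so that the spread was wider under JHU083 (coefficient of variation 10.5% against 2.67%). The means were 331 ± 8.83 and 332 ± 34.7 CPM (SD, n = 5 each), with a log2 fold change of 0.01 ± 0.08 (SE; edgeR adjusted p = 0.957). The sign of so small a value turned under several settings.

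Csf2rb (chr15:78325752-78353847, plus strand), the shared beta chain, was at 366, 383, 394, 352 and 382 CPM under vehicle and at 453, 357, 286, 365 and 373 CPM under JHU083, again in replicates 1 to 5. Its paralogue Csf2rb2 (chr15:78282507-78305721, minus strand), the beta chain used by IL-3 in mice, was at 112, 126, 125, 124 and 122 CPM and at 159, 137, 102, 130 and 147 CPM. In both genes JHU083 replicate 1 was the highest and JHU083 replicate 3 the lowest of all 10 samples, and the groups overlapped. The log2 fold change was -0.03 ± 0.10 for Csf2rb (SE; edgeR adjusted p = 0.813) and 0.15 ± 0.10 for Csf2rb2 (SE; edgeR adjusted p = 0.265). Without JHU083 replicate 3, Csf2rb2 passed the threshold (0.24, edgeR adjusted p = 0.0152), and the value of Csf2rb was 0.05.

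These 2 genes lie side by side on mouse chromosome 15 in opposite directions, and their sequence is shown because its similarity bears on how fragments can be assigned. Over 2628 aligned coding positions, 95.24% were identical. Of the 75-base windows of the Csf2rb coding sequence, 15.8% occurred unchanged in the full Csf2rb2 transcript. The same held for 16.13% of the Csf2rb2 coding windows in the full Csf2rb transcript. Most but not all windows therefore distinguish the genes. The stretch of 90 bases below, from GENCODE M21 transcripts on GRCm38, holds 16 differences, which the capitals mark. It was chosen as the ungapped stretch of this length, within a single exon of each gene, that differs most. The stretch is therefore less alike than the coding sequences as a whole. It is coding and lies in exon 5 of Csf2rb (chr15:78338897-78338986, plus strand) and in exon 4 of Csf2rb2 (chr15:78294345-78294434, minus strand).
Csf2rb: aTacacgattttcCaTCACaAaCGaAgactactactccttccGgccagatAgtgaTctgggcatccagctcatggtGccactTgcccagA
Csf2rb2: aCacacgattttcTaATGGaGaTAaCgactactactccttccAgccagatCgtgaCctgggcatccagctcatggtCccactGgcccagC

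The ratio of Csf2rb2 to Csf2rb fragments was 0.305, 0.329, 0.318, 0.351 and 0.319 in vehicle replicates 1 to 5 and 0.350, 0.384, 0.355, 0.356 and 0.394 in JHU083 replicates 1 to 5. All but 1 of the JHU083 ratios, that of replicate 1, lay above all vehicle ratios. The mean was 0.324 ± 0.017 under vehicle and 0.368 ± 0.0197 under JHU083 (SD, n = 5 each), and no test of the ratio was made. The summed level of both genes was 497 ± 19.5 and 502 ± 80.1 CPM. How the counting divided fragments that match both genes is not given in the sources used here.

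**Figure D3:**
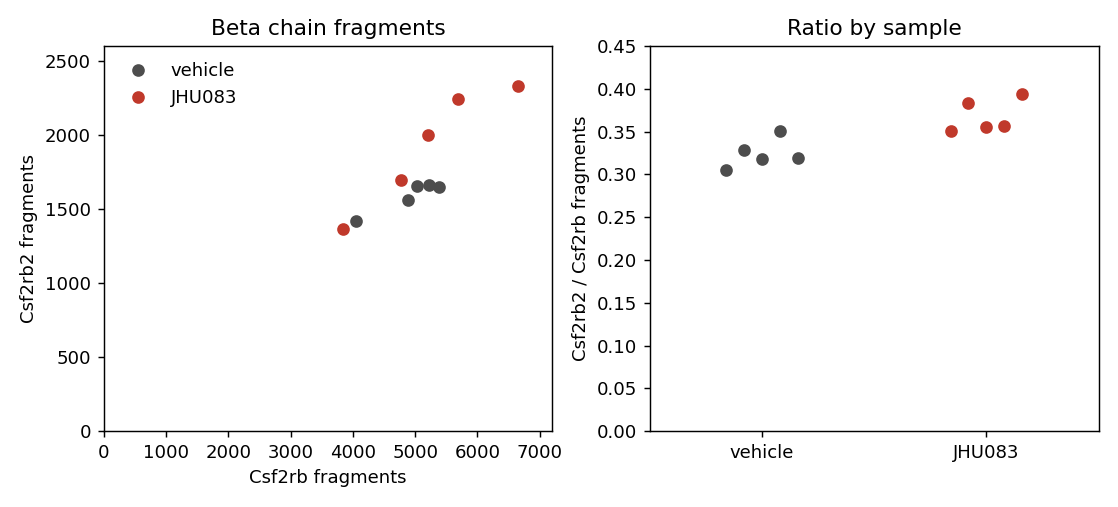
Left, fragments of Csf2rb2 against fragments of Csf2rb with 1 point per sample; right, the ratio of the 2 counts by sample, vehicle in grey and JHU083 in red. The ratio is 0.305 to 0.351 in the vehicle samples and 0.350 to 0.394 in the JHU083 samples.

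Il3ra (chr14:14346275-14356011, plus strand), the specificity chain of the IL-3 receptor, was at 24.4, 21.03, 14.2, 22.4 and 24.5 CPM in vehicle replicates 1 to 5 and at 24.5, 19.4, 24.6, 20.8 and 16.8 CPM in JHU083 replicates 1 to 5. The ranges overlapped almost fully, with vehicle replicate 3 lowest of all. The log2 fold change was -0.01 ± 0.15 (SE; edgeR adjusted p = 0.977), with means of 21.3 ± 4.23 and 21.2 ± 3.39 CPM (SD, n = 5 each). The antisense gene Gm48860 overlaps Il3ra. IL3RA is also carried by basophils, mast cells and some dendritic cells. The summed mast cell and basophil markers were at 12.1 to 13.7 CPM under vehicle and 7.64 to 19.96 CPM under JHU083, with 1 gene higher and 1 lower of 4 tested, against 36.7% of all loci. The summed dendritic cell markers were at 26.7 to 53.7 and 21.4 to 39.1 CPM, with 1 higher and 1 lower of 6 tested, near that share. The lower one, Fscn1, went from a mean of 28.5 to 10.7 CPM (log2 fold change -1.42, edgeR adjusted p = 0.00022). The higher one, Cd209a, went from 1.69 to 7.24 CPM (2.09, edgeR adjusted p = 0.000363), against the direction of the sum.

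Levels of different genes were compared per transcript length, on the deposited FPKM values. In the vehicle samples the order was Csf1r (460 ± 20.8 FPKM, SD, n = 5 here and below), Csf2ra (186 ± 5.41), Csf2rb (75.7 ± 3.61), Csf2rb2 (25.4 ± 1.28), Csf3r (18.9 ± 1.23), Csf1 (18.5 ± 2.14), Il3ra (16.6 ± 3.25), Csf3 (4.69 ± 2.45), Csf2 (1.53 ± 0.679) and Il34 (0.735 ± 0.321). The ranges of neighbours overlapped between Csf3r and Csf1, between Csf1 and Il3ra and between Csf2 and Il34. All receptor chains but Il3ra thus had a higher mean than any ligand, though Csf3r and Csf1 overlapped, and Csf1r was 2.48 times the level of the next gene. With JHU083, Csf1r stood at 659 ± 54.4 FPKM, 3.52 times the next gene, Csf2ra (187 ± 19.96). Csf2rb followed with 74.3 ± 12.3, then Csf3r (28.7 ± 3.53), Csf2rb2 (28.2 ± 4.62), Csf1 (25.7 ± 3.26), Il3ra (16.6 ± 2.62), Csf3 (0.824 ± 0.482), Il34 (0.428 ± 0.308) and Csf2 (0.177 ± 0.211). Here Csf3r overlapped Csf2rb2, Csf2rb2 overlapped Csf1, and Csf3, Il34 and Csf2 overlapped as neighbours.

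Receptor and ligand levels in FPKM were also set against each other within each sample. The ratio of Csf1r to Csf1 was 25.2 ± 3.59 under vehicle and 26.2 ± 5.36 under JHU083 (SD, n = 5 each), so the rise of both transcripts left their proportion within its spread. The ratio of the GM-CSF receptor chains, Csf2ra to Csf2rb, was 2.46 ± 0.119 and 2.56 ± 0.371. The ratio of Csf3r to Csf3 had a median of 4.73 (2.06 to 8.02) under vehicle and of 34.4 (24.1 to 236) under JHU083, without overlap. Its highest value came from the sample with 2 Csf3 fragments.

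**Figure D4:**
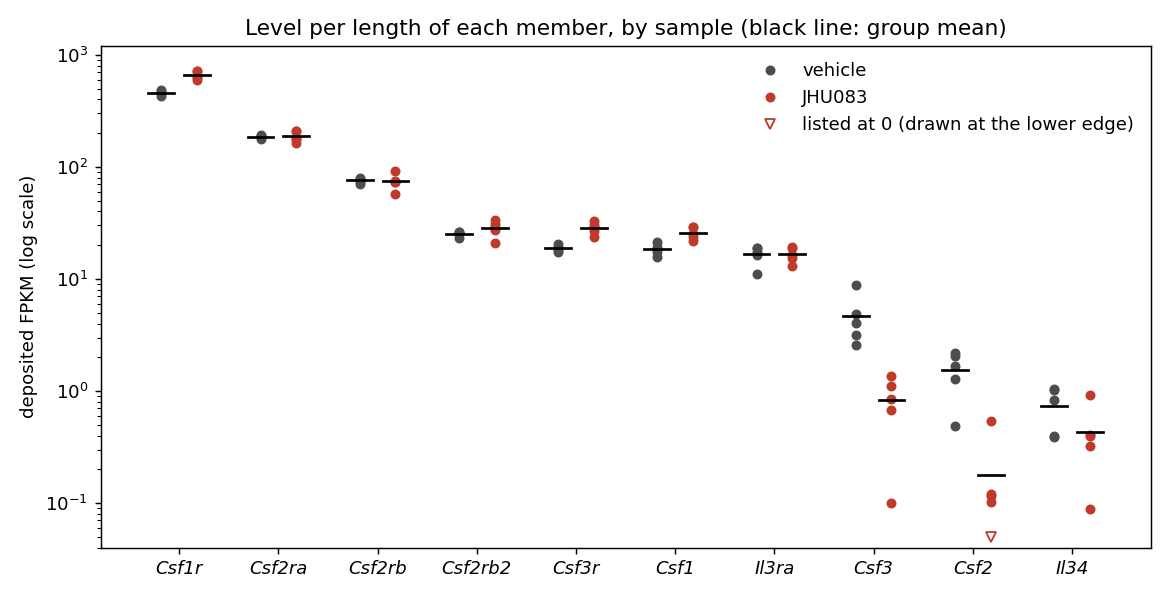
Deposited FPKM of each member in every sample on a log scale, ordered by the vehicle mean, with vehicle in grey, JHU083 in red and black lines for group means; an open triangle marks a sample listed at 0. Csf1r is highest in both groups (460 and 659 FPKM on average), and Csf3, Csf2 and Il34 lie below all receptor chains.

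The genes that act with these members were followed in 5 lists, in which 20 of 59 tested genes changed (33.9%), near the 36.7% of all loci. Of 10 related ligands and receptor chains, 6 were tested, none was higher and 1 was lower, with a median log2 fold change of 0.13 beside 0.01 over all loci tested. The tested locus of Flt3l also lists Rpl13a, Snord33 and Mir5121, so its value does not stand for Flt3l; without it 5 were tested, the median was 0.23, and 20 of 58 genes (34.5%) changed over the 5 lists. The lower one was Sdc1, a cell surface proteoglycan that can bind IL-34, which fell from 27.9 ± 6.90 to 14.3 ± 4.37 CPM (SD, n = 5 each; log2 fold change -0.97 ± 0.21, SE; edgeR adjusted p = 0.00302). Sdc1 is also an epithelial gene, and the part of the epithelial markers given above in its fall was not tested. Il3, Il5, Il5ra and Ptprz1, the ligands and chains of related systems that were not tested, had at most 2, 4, 9 and 1 fragments in any sample. Adam17, the protease that can shed CSF1R from the cell surface, had a log2 fold change of 0.23 ± 0.10 (SE; edgeR adjusted p = 0.0912).

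Among 22 genes of CSF1R signalling, all tested, 5 were higher, 3 were lower and 14 did not pass (median log2 fold change 0.08); 8 of 22 is close to the 36.7% of all loci that changed. The higher ones were the docking proteins Gab2 and Gab3, the kinases Fyn and Syk, and Pik3r1, the regulatory subunit of phosphoinositide 3-kinase. Gab2 rose from 76.8 ± 3.93 to 116 ± 9.19 CPM (SD, n = 5 each; log2 fold change 0.59 ± 0.07, SE; edgeR adjusted p = 4.65e-05), with no overlap of the groups. Fyn had a log2 fold change of 0.69 ± 0.15 (SE; edgeR adjusted p = 0.00297) and Gab3 one of 0.60 ± 0.19 (SE; edgeR adjusted p = 0.0242), both with overlapping groups. Dok2, an adaptor that restrains kinase signalling, fell from 115 ± 12.9 to 62.9 ± 10.4 CPM (SD, n = 5 each; log2 fold change -0.87 ± 0.11, SE; edgeR adjusted p = 5.96e-05). The phosphatase gene Ptpn6 fell as well. In the samples with the rRNA-like loci at 0, 1 gene was higher and 1 lower, and without JHU083 replicate 4 there were 3 higher. Fewer than 3 were lower in 14 of 24 alternative fits.

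A list of 8 transcription factors known to bind the Csf1r gene had 7 members with a row; the eighth was not analysed here. Of these 7, 4 were higher, against 18.4% of all loci, and none was lower, with a median log2 fold change of 0.27. Fewer than 4 were higher in 15 of 24 alternative fits. Cebpa, a factor of the myeloid lineage, rose most, from 398 ± 17.2 to 823 ± 85.7 CPM (SD, n = 5 each; log2 fold change 1.05 ± 0.08, SE; edgeR adjusted p = 1.45e-06). Egr2 rose by 0.65 ± 0.09 (SE; edgeR adjusted p = 0.000112), Fli1 by 0.48 ± 0.08 (edgeR adjusted p = 0.000592) and Ets2 by 0.22 ± 0.08 (edgeR adjusted p = 0.0455) on the log2 scale. Spi1, which encodes PU.1, the best known activator of Csf1r, did not pass the threshold (log2 fold change -0.17 ± 0.10, SE; edgeR adjusted p = 0.199). In the samples with the rRNA-like loci at 0, 2 of the factors were higher.

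Downstream of CSF2 and IL-3, 9 signalling genes were tested, of which none was higher and 1 was lower (median log2 fold change -0.01), against 36.7% of all loci that changed. This was Stat5a, one of the pair of STAT5 genes, with 21.7 ± 1.71 CPM under vehicle and 17.6 ± 2.24 CPM under JHU083 (SD, n = 5 each; log2 fold change -0.30 ± 0.10, SE; edgeR adjusted p = 0.0348). The call for this list was lost in 12 of 24 alternative fits, among them those without vehicle replicate 1, 2 or 5 and without JHU083 replicate 3 or 5, each of which left 0 lower genes. Stat5b, Jak2 and Stat3 did not pass.

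Of 15 genes known to respond to STAT5 or CSF2, 4 were higher, 2 were lower and 9 did not pass, with a median log2 fold change of 0.14; the 6 of 15 that changed are near the 36.7% of all loci. The higher ones included Irf4, a transcription factor that GM-CSF induces in monocytes, with 8.91 ± 2.52 CPM under vehicle and 19.5 ± 6.01 CPM under JHU083 (SD, n = 5 each; log2 fold change 1.13 ± 0.22, SE; edgeR adjusted p = 0.00123). The chemokine gene Ccl17 rose by 1.79 ± 0.42 on the log2 scale (SE; edgeR adjusted p = 0.00436), unevenly, with 3.21 to 5.28 CPM under vehicle and 4.98 to 31.3 CPM under JHU083. Its relative Ccl22 and the survival gene Mcl1 were the other higher genes. Ccnd1, which encodes cyclin D1, fell from 154 ± 17.2 to 58.0 ± 5.27 CPM (SD, n = 5 each; log2 fold change -1.41 ± 0.09, SE; edgeR adjusted p = 4.92e-07), and Socs1, a feedback inhibitor of cytokine signalling, from 18.3 ± 2.31 to 7.17 ± 1.91 CPM (log2 fold change -1.35 ± 0.17, SE; edgeR adjusted p = 5.17e-05). Cish and Pim1, other direct STAT5 targets, had log2 fold changes of -0.08 and 0.01 and did not pass. In the samples with the rRNA-like loci at 0, none of the list was higher.

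**Figure D5:**
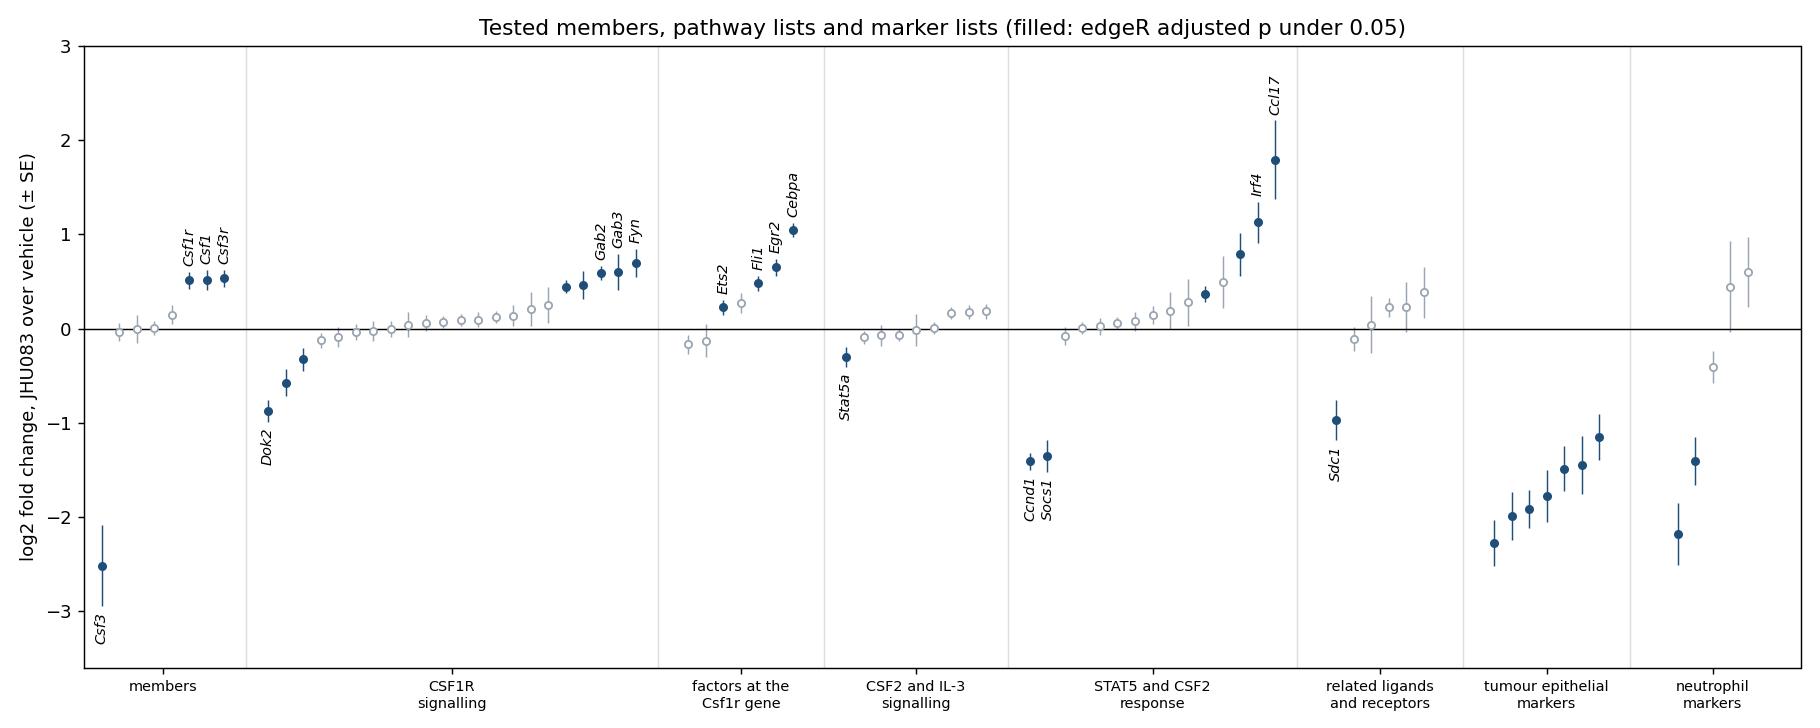
Log2 fold change of JHU083 over vehicle (± SE, edgeR) for each tested member and each tested gene of the pathway lists and 2 marker lists, 1 point per gene; filled points have an adjusted p under 0.05. Csf1, Csf1r and Csf3r sit near 0.5 and Csf3 at -2.52, the factors at the Csf1r gene have 4 filled points above 0, and all 7 tumour epithelial markers are below 0.

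Some pairs of tested members varied together among samples of the same group. After the group means were removed from log2 CPM, Pearson's r over the 10 samples was 0.90 between Csf1r and Csf3r and 0.91 between Csf2rb and Csf2rb2, which share similar sequence. Csf1 was opposite to Csf1r (-0.78) and to Csf3r (-0.80) within groups, although all 3 were higher under JHU083, and also to Il3ra (-0.77). Il3ra and Csf3r had an r of 0.70, and the other 22 of 28 pairs lay between -0.38 and 0.59. Among 10126 tested loci with an average log2 CPM of at least 2, the non-members most like Csf1r were Aurkb (0.96), Tyk2 (0.96) and Spon1 (0.93). For Csf1 they were the locus of Gm13548 and Stam2 (0.96), Noc3l (0.95) and Dusp4 (0.93). For Csf2rb they were the locus of AC084391.1 and Cnnm4 (0.96), Enc1 (0.95) and the locus of Atp2b4 and Mir6903 (0.95). These values describe 10 samples that share library depth and composition differences, and were selected as the highest of many.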

How the data were processed

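RNA of 10 samples, 5 per treatment as labelled, was poly(A)-selected and sequenced in pairs, per the labels' protocols. Per the submitters' processing notes, bcl2fastq 2.17.1.14, FastQC 0.11.2, TopHat2 2.1.1 and build GRCm38 were used; the counting program and annotation are not given in the sources used here. Per the file headers, the authors deposited raw counts, but the values are not whole and are called expected counts here. In each sample, 99.69% to 99.85% of positive values were whole multiples (within 0.02) of 1 step of 0.888 to 1.17, by which they were divided to give fragments. The deposited normalized column was read as FPKM, from its values. A row without a symbol (0.00169% of fragments) was left out, and a locus listing several symbols covers all of them; Csf2rb is listed with Mir7676-2 and Csf2rb2 with Mir7676-1.

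Loci were filtered with filterByExpr, normalised with TMM and tested with edgeR 4.0.16 (R 4.3.3), without covariates; the standard error is the log2 fold change divided by the square root of F. DESeq2 1.42.0, limma 3.58.1, other scalings, filters and units, the rRNA-like status as a covariate or split, a replicate block and leaving out each sample were alternatives; the split and the refits of Csf2 and Il34 without each sample were chosen after seeing the data. The fit was tested on simulated data. The text names all 10 members, of each pathway list the 4 genes with the largest change among those past the threshold, and for Csf1r, Csf1 and Csf2rb the 3 loci with the highest within-group r; Syk, Pik3r1, Ptpn6, Ccl22, Mcl1, Adam17, Flt3l, Il3, Il5, Il5ra, Ptprz1, Spi1, Stat5b, Jak2, Stat3, Cish and Pim1 and the marker genes were added with their values known. A gene of the lists is not reported here. The members and lists were chosen with earlier results of these data known. Positions are from GENCODE M21 (GRCm38) by symbol. Python 3.11.15 with pandas 2.3.3, numpy 2.4.6, scipy 1.17.1 and matplotlib 3.10.9 was used.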

Additional observations from a re-analysis of the deposited data

Results flagged for a closer look

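In 3 of 20 groups of 5 values, 1 sample stood apart from the other 4 by more than 0.71 of the group's range. For normally distributed values chance gives such a gap in about 1 in 20 groups. The Csf2 group was judged on CPM from 0 to 5 fragments a sample, to which that rate does not apply. The other flagged groups were judged on log2 CPM. Csf2 was highest in JHU083 replicate 1, at 0.341 CPM, where the other JHU083 samples were at 0 to 0.0765 CPM; the gap was 0.776 of the range. Csf2rb2 was lowest in vehicle replicate 1, at 6.81 log2 CPM, with the others between 6.93 and 6.98 (0.746 of the range). Il3ra was lowest in vehicle replicate 3, at 3.84 log2 CPM, with the others between 4.40 and 4.62 (0.72 of the range).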

How the results depend on the processing

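Csf1r, Csf3r and Csf3 kept their direction and stayed past the threshold in all 24 alternatives, and Csf1 in 23: within the samples with the rRNA-like loci present its log2 fold change was 0.48. Without 1 sample each, the log2 fold changes ranged from 0.46 to 0.59 for Csf1, 0.48 to 0.55 for Csf1r, 0.47 to 0.60 for Csf3r, -2.79 to -2.16 for Csf3, -0.033 to 0.049 for Csf2ra, -0.12 to 0.046 for Csf2rb, 0.082 to 0.24 for Csf2rb2 and -0.12 to 0.071 for Il3ra. The signs of values near 0 also turned under other settings. Csf2ra was at -0.00037 with limma-voom, -0.074 with library size only and -0.022 with the rRNA-like loci present. Il3ra was at 0.0031 with limma-voom, 0.046 with rRNA-like status as a covariate, 0.011 and 0.0098 on log2(FPKM + 0.1) and log2(FPKM + 1), and 0.12 with the rRNA-like loci at 0. Scaling by library size only moved the median of all loci by -0.08 and gave 1564 higher and 3141 lower loci.

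The replicate number as a block gave 1612 higher and 1757 lower loci, against 2296 and 2293. Csf1 (0.52), Csf1r (0.51), Csf3r (0.53) and Csf3 (-2.53) stayed past the threshold, and Il3ra was at 0.0018; CSF1R signalling had 3 higher genes and CSF2 and IL-3 signalling 0 lower. Same-numbered samples did not deviate together (correlations of -0.611 to -0.175, with no vehicle sample closest to its own number), so the numbers were not taken to pair the samples.

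Over all loci, the samples with the rRNA-like loci at 0 gave 532 higher and 586 lower, and the others 1276 higher and 1542 lower, with fewer samples in each fit. At 0, the higher genes numbered 1 for CSF1R signalling, 2 for the factors at the Csf1r gene and 0 for the STAT5 and CSF2 response, and the lower genes 1 for CSF1R signalling and 0 for the related ligands and chains. CSF2 and IL-3 signalling had 0 lower genes with no filter, with the covariate, on both FPKM scales and within both sets of samples, and 1 higher gene with DESeq2 and with at least 10 fragments in every sample of 1 group. The factors had 1 lower gene with library size only. The cause was not tested. Without 1 sample each, all loci gave 1821 to 2899 higher and 1900 to 2930 lower; related ligands and chains gave 0 to 1 and 1 to 2, CSF1R signalling 3 to 6 and 2 to 3, the factors 3 to 5 and 0 to 1, CSF2 and IL-3 signalling 0 to 2 and 0 to 1, and the STAT5 and CSF2 response 4 to 5 higher and 2 lower. Leaving out JHU083 replicate 3 gave 1 higher and 2 lower related genes, 1 lower factor and 2 higher CSF2 and IL-3 genes, and leaving out vehicle replicate 3 gave 1 higher related gene.

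By CPM in place of FPKM, the ranks of Csf2ra, Csf2rb, Csf3r, Csf1, Csf2 and Il34 under vehicle were 3, 2, 6, 5, 10 and 9, and those of Csf2ra, Csf2rb, Csf3r, Csf2rb2 and Csf1 under JHU083 were 3, 2, 6, 4 and 5, since CPM does not divide by length. Depth limits Csf2 in 4 JHU083 samples and Csf3 in replicate 5 of that group, which are under the 3-fragment limit, and Il34, with 2 to 22 fragments a sample.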
